A study of Mus musculus with 8 samples.

Results

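The receptors Notch1, Notch2 and Notch3, the ligands Jag1, Jag2 and Dll1 and the target genes Hes1 and Hey1 were followed in epithelial cells of the mouse tongue. These 8 genes were matched by symbol among the 32285 genes of each count matrix; the rule that lists them uses no measured value, though earlier results of these data were known when they were chosen. Tongue epithelium was dissected 15 days after induction, sorted for viable cells and sequenced by droplet 3' RNA-seq, which counts unique molecular identifiers (UMIs). All mice carried Krt14-CreERT, a tamoxifen-inducible Cre driven by the keratin 14 promoter of basal epithelial cells, and LSL-rtTA, the doxycycline-responsive activator that this Cre releases. Per the study's methods all mice also carried the reporter tetON_H2B-GFP and were fed doxycycline from the first tamoxifen treatment on, which turns on the tetON transgenes. The control mice (N) were littermates with no further transgene. E mice also carried tetON_E6-E7, the oncogenes of a human papillomavirus, Y mice carried tetON_YAP1S127A, a YAP1 with the S127A change that escapes inhibition by the Hippo kinases, and EY mice carried both. The mice were 8 to 16 weeks old, per the study's methods and received the tamoxifen by injection into the tongue. Cells with an active transgene were not counted here, so the sums below may also hold cells without one. Each group had 2 libraries, written N1, N2 and so on, and the label of N2 names 2 animals.

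Notch receptors are single-pass membrane proteins that are cleaved after binding a Jagged or Delta-like ligand on a neighbouring cell. The released intracellular domain enters the nucleus, joins the DNA-binding protein RBPJ and a Mastermind coactivator, and turns on targets such as Hes and Hey repressors. In stratified epithelia the pathway is known for promoting the exit of cells from the basal layer. YAP is a coactivator that binds DNA through TEAD factors.

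Epithelial cells were those with at least 0.5% of UMIs from Krt5, Krt14, Krt15, Krt13 and Krt6a and no Ptprc, within the study's limits on genes, UMIs and mitochondrial reads. This gave 12957 cells of 42550, from 170 in EY1 to 4055 in E1, with 2454816 to 55154619 UMIs per library and a median of 12575 to 23570 UMIs per cell. The limits on genes, UMIs and mitochondrial reads removed unequal shares of the cells that met the keratin and Ptprc rule. They left 170 of 1069 in EY1 and 415 of 1484 in N2, but 3447 of 4528 in N1. Any pair of libraries shared at most 5 cell barcodes. All 12 epithelial markers were detected in every library, but the 5 keratins that selected the cells are among them. The markers of other cells are given as plain CPM (UMIs scaled to a common library total, with no TMM factor). The 10 immune markers summed to 35.9 to 258 CPM, against 13319 to 24700 CPM in the Ptprc-positive cells of the same samples. Ptprc is among these markers, and it was used to choose both sets of cells. The 6 fibroblast markers summed to 28.3 to 1227 CPM, nearly all of it Dcn, the 10 gland or duct markers to 57.3 to 1081 CPM and the 4 red cell markers to 1.73 to 679 CPM. Apart from Dcn, no fibroblast marker (Col1a1, Col1a2, Col3a1, Lum or Pdgfra) passed 2.79 CPM in any library. The 6 endothelial markers summed to 2.63 to 10.4 CPM, with Egfl7 at 2.06 to 10.1 CPM and Cdh5, Emcn and Cldn5 at 0 in every library. The 6 mural and muscle markers summed to 12.6 to 60.6 CPM, with Acta2 at 8.26 to 35.2 CPM, Cspg4 at 2.97 to 25.4 CPM and Rgs5 at 0 in every library. Yap1, whose count includes the transgene where the reads match, was 31.4 to 46.1 CPM in N and E and 174 to 447 CPM in Y and EY. Mcm2, a replication licensing gene, was 5.71 and 12.2 CPM in N, 25.5 and 38.6 CPM in E, 14.1 and 26.9 CPM in Y and 37.4 and 45.4 CPM in EY. UMIs were summed per library, and all other levels are CPM of these sums scaled by the trimmed mean of M-values (TMM). In such sums, fewer cells with a transcript and less transcript per cell cannot be told apart. Differences were tested with edgeR's quasi-likelihood test over all genes, and a gene was called when its Benjamini-Hochberg adjusted p was under 0.05. The p-values measure the spread between libraries. The methods give 2 mice per group, and whether N2 holds cells of 1 mouse or 2 was not settled.

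The 8 genes lie on 5 chromosomes of the GRCm38 build in the GENCODE annotation. The receptor genes are at chr2:26457903-26516663 on the minus strand (Notch1), chr3:98013527-98150361 on the plus strand (Notch2) and chr17:32120820-32166852 on the minus strand (Notch3). The ligand genes are at chr2:137081456-137116644 (Jag1), chr12:112907819-112929776 (Jag2) and chr17:15367354-15376872 (Dll1), all on the minus strand. The target genes are at chr16:30064384-30067796 on the plus strand (Hes1) and chr3:8663359-8667256 on the minus strand (Hey1). Short same-strand models lie within Notch1 (Mir6996), Notch2 (Gm42819 and Gm42820) and Jag2 (Mir6941), and reads in those stretches could have been assigned to either model. RefSeq promoter sequences were matched for 6 of the 8 genes, leaving Hes1 and Hey1. The 250 bases before the RefSeq start (GRCm38.p6) are given for the receptors, because these were the members whose level differed with the transgenes or, for Notch3, rose in Krt13/Krt4 cells. They read 5′ to 3′ on the gene's strand, and capitals mark a TEAD core, GGAATG or its reverse complement CATTCC. The Notch1 window is chr2:26503823-26504072, within an intron of a longer annotated Notch1 transcript, the Notch2 window is chr3:98013288-98013537 and the Notch3 window is chr17:32166891-32167140.
Notch1: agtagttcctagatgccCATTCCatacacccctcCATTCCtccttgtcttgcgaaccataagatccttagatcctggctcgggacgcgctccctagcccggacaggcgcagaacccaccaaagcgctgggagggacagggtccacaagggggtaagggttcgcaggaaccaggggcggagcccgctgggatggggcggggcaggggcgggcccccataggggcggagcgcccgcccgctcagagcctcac
Notch2: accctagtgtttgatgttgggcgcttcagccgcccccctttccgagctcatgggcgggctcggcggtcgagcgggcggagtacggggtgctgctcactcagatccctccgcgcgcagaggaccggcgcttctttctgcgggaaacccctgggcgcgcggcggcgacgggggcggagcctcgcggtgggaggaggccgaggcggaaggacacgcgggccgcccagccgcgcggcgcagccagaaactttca
Notch3: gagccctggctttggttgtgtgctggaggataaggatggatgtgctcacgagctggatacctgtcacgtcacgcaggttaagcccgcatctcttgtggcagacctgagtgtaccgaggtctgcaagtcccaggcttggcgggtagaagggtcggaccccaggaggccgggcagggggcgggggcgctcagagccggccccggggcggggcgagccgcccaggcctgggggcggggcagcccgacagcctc
The Notch1 window held 2 TEAD cores, which began 233 and 216 bases before the start, and the Notch2 and Notch3 windows held none. Of 32851 promoter windows of this length, 12.6% held a TEAD core. The RBPJ core TGGGAA, searched on both strands, was in 21.6% of all windows and in none of these 3. A match of 6 letters is a description of the sequence and not a binding site.

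Notch1 was lower in EY epithelium. Its level was 121 (N1), 124 (N2), 85.1 (E1), 117 (E2), 107 (Y1), 105 (Y2), 51.2 (EY1) and 49.4 (EY2) CPM. Both EY libraries lay below all 6 others, at 50.3 ± 1.22 CPM (SD, n = 2) against 123 ± 2.09 CPM in N. The log2 fold change between EY and N was -1.29 (SE 0.17, edgeR adjusted p = 0.00899), a 2.44-fold lower level. Notch1 was the only member called in this comparison, 1 of 8, where 18.8% of all 13555 tested genes were called, 9.5% lower and 9.31% higher. Its fold change kept its size when any 1 library was left out, from -1.30 to -1.26, but the adjusted p was 0.0664 without N1, 0.0502 without N2 and 0.0687 without EY2. The background fell with the same libraries, to 5 genes of 13990 called without N1, 271 of 14252 without N2 and 25 of 13914 without EY2. Dcn, nearly the whole of the fibroblast marker sum, also moved with this comparison. That sum went from 1105 and 1227 CPM in N to 254 and 28.3 CPM in EY. The mural and muscle sum moved too, from 36.1 and 60.6 CPM to 12.6 and 22.8 CPM. Their part in the Notch1 difference was not tested, apart from the removal of cells with 3 or more UMIs of non-epithelial markers, which gave -1.36 (edgeR adjusted p = 0.00467). That removal was unequal, at 57.4% of the cells in N1, 68.0% in N2, 40% in EY1 and 19.1% in EY2. Most of the N cells removed were flagged only with Dcn counted.

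Neither transgene alone moved Notch1 past the threshold. The log2 fold change was -0.22 (SE 0.17, edgeR adjusted p = 0.673) between Y and N and -0.28 (SE 0.17, edgeR adjusted p = 1) between E and N. The interaction contrast, EY minus E minus Y plus N on the log2 scale, gave -0.79 (SE 0.24) for Notch1, with an unadjusted p of 0.0121 and an edgeR adjusted p of 0.356. No gene of 13555 was called in that contrast (0%), although 1562 had an unadjusted p under 0.05 and DESeq2 called 90.

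Notch2 was higher in the libraries with the YAP transgene. Its level was 9.59 (N1), 10.0 (N2), 9.99 (E1), 9.56 (E2), 15.5 (Y1), 18.4 (Y2), 12.2 (EY1) and 12.8 (EY2) CPM. The 4 libraries with the YAP transgene all lay above the 4 without it, at 14.7 ± 2.87 CPM against 9.79 ± 0.242 CPM (SD, n = 4 each). Against N, the log2 fold change of Notch2 was 0.36 (SE 0.18, edgeR adjusted p = 0.19) in EY. It was 0.80 (SE 0.18, edgeR adjusted p = 0.116) in Y, and neither was called. With E6-E7 as a second term, the YAP effect on Notch2 was a log2 fold change of 0.59 (SE 0.15, edgeR adjusted p = 0.0458). It was the 1 member of 8 called for the YAP transgene, where 9.33% of 13122 genes were called. The call was near the threshold. It was lost when any 1 of the 8 libraries was left out, with log2 fold changes of 0.49 to 0.64 and adjusted p of 0.0509 to 0.126, and also with unscaled library sizes or without the filter on low counts.

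Notch2 transcripts were also found in Ptprc-positive cells, at 12.2 to 49.2 CPM. They were more abundant there than in the epithelial cells in every library but Y2, at 18.0 against 18.4 CPM. The summed immune markers in the epithelial cells were 35.9 to 47.2 CPM in N and E and 71.4 to 258 CPM in Y and EY, so immune RNA moved with the YAP transgene too. These sums were 0.165% (E1) to 1.79% (EY1) of those in the Ptprc-positive cells of the same library. The part of immune RNA in the Notch2 result was not tested. Leaving out every epithelial cell with 3 or more UMIs of non-epithelial markers, Dcn not counted, gave 0.64 for the YAP effect on Notch2 (edgeR adjusted p = 0.0348). This exclusion was added after seeing the data, and its removal was unequal. It took 267 of 3447 cells (N1), 112 of 415 (N2), 322 of 4055 (E1) and 93 of 553 (E2). With the YAP transgene it took 435 of 1289 (Y1), 116 of 1001 (Y2), 49 of 170 (EY1) and 324 of 2027 (EY2).

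**Figure D1:**
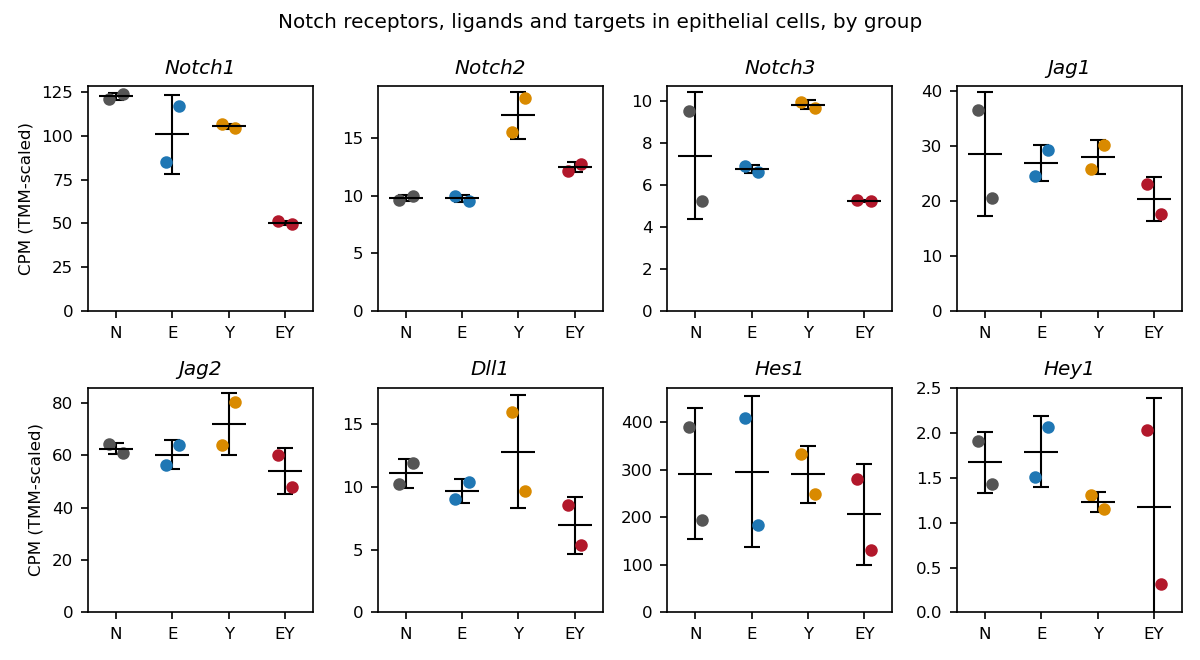
Level of each of the 8 genes in epithelial cells, in TMM-scaled CPM, by group. Points are the 2 libraries of a group, and bars are their mean and SD, with the lower end of the Hey1 bar in EY cut at 0. Both EY libraries are lowest for Notch1, and both Y and both EY libraries lie above the N and E libraries for Notch2.

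Notch3, a receptor also found in suprabasal keratinocytes and in mural cells, was at 9.52 (N1), 5.24 (N2), 6.89 (E1), 6.61 (E2), 9.95 (Y1), 9.65 (Y2), 5.28 (EY1) and 5.22 (EY2) CPM. The N libraries spanned nearly the whole range of the others. No comparison between groups was called for Notch3, with log2 fold changes of -0.53 (SE 0.30) for EY, 0.37 (SE 0.28) for Y and -0.16 (SE 0.28) for E against N.

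The 3 receptors together changed their proportions. Of the summed Notch1, Notch2 and Notch3 UMIs, Notch2 made up 6.84% (N1), 7.17% (N2), 9.79% (E1), 7.18% (E2), 11.8% (Y1), 13.9% (Y2), 17.8% (EY1) and 19.0% (EY2). The exact 95% interval for counting error was widest in EY1, from 12.3% to 24.4% on 169 UMIs, and narrowest in N1, from 6.26% to 7.45% on 7108 UMIs. The means were 15.6% ± 3.34 with and 7.75% ± 1.37 without the YAP transgene (SD, n = 4 each), and all 4 libraries with the transgene lay above all 4 without it. The share also rises where Notch1 falls. Mean Notch1 was 123 CPM in N, 106 CPM in Y and 50.3 CPM in EY, and mean Notch2 was 9.80, 17.0 and 12.5 CPM. This share was chosen after the values were seen, so it is given as a description with no test. UMI shares between genes also depend on how well each transcript is captured.

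**Figure D2:**
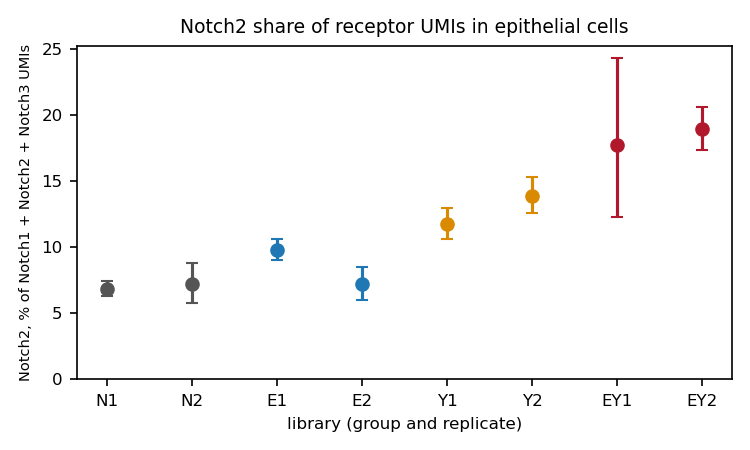
Notch2 as a percentage of the UMIs of the 3 receptors, by library, with exact 95% binomial intervals for counting error. The 2 N libraries are lowest, at 6.84% and 7.17%, and the 2 EY libraries are highest, at 17.8% and 19.0%.

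None of the 3 ligands was called in any comparison of groups. Jag2 was 64.1 (N1), 61.0 (N2), 56.2 (E1), 64.0 (E2), 63.7 (Y1), 80.4 (Y2), 60.1 (EY1) and 47.7 (EY2) CPM. N, E and Y overlapped, and both EY libraries lay below those of N and Y. The YAP effect on Jag2 was 0.02 on the log2 scale (SE 0.14). Jag1 was 36.4 (N1), 20.6 (N2), 24.5 (E1), 29.2 (E2), 25.8 (Y1), 30.1 (Y2), 23.1 (EY1) and 17.5 (EY2) CPM. The groups overlapped, since the 2 N libraries alone spanned all but EY2. Dll1 was 10.2 (N1), 11.9 (N2), 9.01 (E1), 10.4 (E2), 15.97 (Y1), 9.65 (Y2), 8.53 (EY1) and 5.33 (EY2) CPM. Both EY libraries were below all others for Dll1, with a log2 fold change against N of -0.78 (SE 0.33, edgeR adjusted p = 0.129), which did not pass.

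Hes1 and Hey1, the transcriptional readouts of the pathway, varied widely between the 2 libraries of a group. Hes1 was 390 (N1), 194 (N2), 409 (E1), 184 (E2), 333 (Y1), 248 (Y2), 281 (EY1) and 131 (EY2) CPM. The 2 libraries of N alone spanned Y and EY1, and those of E spanned every library but EY2. Against N, the log2 fold change was -0.52 (SE 0.51) in EY, -0.01 (SE 0.51) in Y and 0.02 (SE 0.51) in E. The SE alone is therefore close to a 1.4-fold change. A call needs a difference well above its SE, so changes in Hes1 larger than this could also go unseen with 2 libraries a group. Hey1 rested on 292 UMIs in all 8 libraries, from 5 in EY1 to 97 in N1. It was 1.91 (N1), 1.43 (N2), 1.51 (E1), 2.07 (E2), 1.31 (Y1), 1.16 (Y2), 2.03 (EY1) and 0.312 (EY2) CPM. The log2 fold change between EY and N was -1.37 (SE 0.82, edgeR adjusted p = 0.251) and turned on 1 library, at -2.42 without EY1 (adjusted p = 0.022) and 0.23 without EY2 (adjusted p = 0.939). It was called with cells above the upper limits kept, at -2.23 (adjusted p = 0.0114), and without any cell limit, at -1.75 (adjusted p = 0.0349), as was the YAP effect on Hey1 in both settings, at -1.53 and -1.26.

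In the comparisons with a single transgene, 0 of 8 members were called. The background was 0.457% of 13555 genes for Y against N and 0.243% for E against N, with 1649 and 506 genes at an unadjusted p under 0.05 and 459 and 131 genes called by DESeq2. Notch2 had the largest shift of the members in Y, at 0.80 (SE 0.18, edgeR adjusted p = 0.116). Over all 8 libraries the E6-E7 effect also called 0 of 8 members, beside 0.434% of 13122 genes, with 1511 genes at an unadjusted p under 0.05 and 290 called by DESeq2. Notch1 had the largest E6-E7 effect of the members, at -0.67 (SE 0.18, edgeR adjusted p = 0.287), and its YAP effect was similar at -0.60 (SE 0.18, edgeR adjusted p = 0.0672). This model has 1 term per transgene and no interaction, so a drop in EY alone is shared between both terms. With 1 transgene alone, Notch1 was at -0.28 in E and -0.22 in Y against N, and its interaction was -0.79 (SE 0.24, not called). The YAP effect on Notch1 was called by DESeq2 (adjusted p = 0.0246), without the low-count filter, and with cells above the limits of 5500 genes or 30000 UMIs kept. The median log2 fold change of the 8 members was -0.53 for EY against N, beside -0.05 over all genes tested, and 0.10 and -0.08 for Y and E against N. These comparisons share the N libraries.

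**Figure D3:**
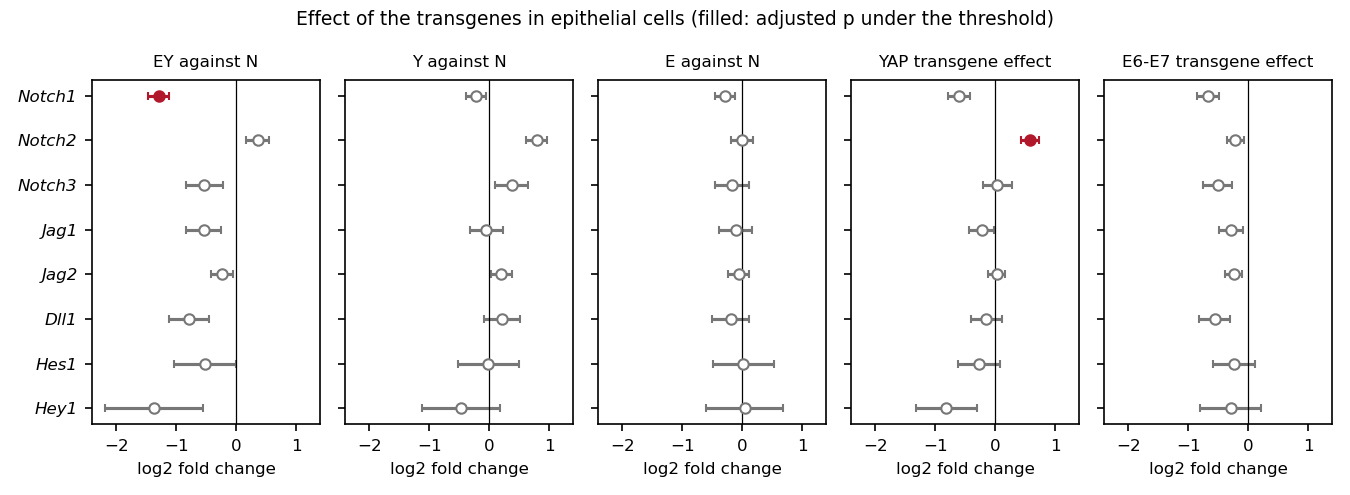
Log2 fold change of each member with its SE, for 3 comparisons with N and for the effect of each transgene over all 8 libraries. Filled points passed the threshold, which Notch1 did at -1.29 for EY against N and Notch2 did at 0.59 for the YAP transgene.

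Members were also compared between keratin classes within each library. Krt5, Krt14 and Krt15 are made by basal cells, and Krt13 and Krt4 by cells that have begun to differentiate towards the surface of this epithelium. Cells were divided by whether Krt13 and Krt4 made up at least 0.5 of the UMIs of these 5 keratins, without use of any Notch gene. The Krt13/Krt4 cells were 4.44% to 13.7% of the epithelial cells, and 7.23% to 22.2% of cells lay near the limit, between 0.25 and 0.75, so the classes are a range and not cell types. Whether the keratins themselves respond to the transgenes was not tested. EY1 had 16 Krt13/Krt4 cells, under the minimum of 20, and was left out here, which leaves 7 libraries and 1 for EY. With the library as a block, 5 of the 8 members were called between the classes, 3 lower and 2 higher in Krt13/Krt4 cells. Of 12578 genes, 30.5% were called, 17.2% lower and 13.3% higher.

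Jag2 and Dll1, the ligands presented to neighbouring cells, were concentrated in the basal-keratin cells. Jag2 was 49.9 to 92.7 CPM in basal-keratin cells and 2.96 to 12.5 CPM in Krt13/Krt4 cells over the 7 libraries. The ranges did not overlap, and the log2 fold change was -3.41 (SE 0.22, edgeR adjusted p = 6.07e-07), or 10.6-fold lower. Dll1 was 5.59 to 17.4 CPM in basal-keratin cells and 0 to 3.63 CPM in Krt13/Krt4 cells, where it rested on 41 UMIs, with a log2 fold change of -2.65 (SE 0.27, edgeR adjusted p = 1.55e-05). It too was lower in every library. Jag1 showed no such pattern, at 18.0 to 36.9 CPM and 5.91 to 35.2 CPM, with a log2 fold change of -0.08 (SE 0.14, edgeR adjusted p = 0.736). Its lowest value, in the Krt13/Krt4 cells of N2, rested on 2 UMIs.

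The receptors did not follow the ligands. Notch3 was higher in Krt13/Krt4 cells in all 7 libraries. From basal-keratin to Krt13/Krt4 cells it went from 6.01 to 28.0 CPM (N1), 4.93 to 11.8 (N2), 3.74 to 25.4 (E1), 4.85 to 33.1 (E2), 8.14 to 22.8 (Y1), 7.36 to 22.4 (Y2) and 5.08 to 8.88 (EY2). The log2 fold change was 2.05 (SE 0.22, edgeR adjusted p = 2.31e-05), or 4.15-fold. Notch2 was also higher in every library, by 0.49 on the log2 scale (SE 0.12, edgeR adjusted p = 0.00808), from 9.20 to 17.8 CPM in basal-keratin cells and 11.9 to 23.6 CPM in Krt13/Krt4 cells. The Krt13/Krt4 values of the smallest libraries rested on few UMIs. In N2, with 31 such cells, there were 4 for Notch3 and 8 for Notch2, and in E2, with 51, there were 9 for Notch2. Notch1 was 50.5 to 125 CPM in basal-keratin cells and 36.7 to 113 CPM in Krt13/Krt4 cells, lower in each of the 7 libraries, but the difference did not pass, with a log2 fold change of -0.18 (SE 0.09, edgeR adjusted p = 0.163).

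The 2 targets differed in how clearly they followed the classes. Hey1 was 0.330 to 2.25 CPM in basal-keratin cells and 0 to 0.368 CPM in Krt13/Krt4 cells, a log2 fold change of -2.68 (SE 0.44, edgeR adjusted p = 0.000612) that rested on 6 UMIs in the Krt13/Krt4 cells. Hes1 was lower in Krt13/Krt4 cells in 6 of 7 libraries, with N2 the exception, and its log2 fold change of -0.33 (SE 0.12, edgeR adjusted p = 0.0525) just missed the threshold. It passed in 8 of the alternative fits, among them one without N2 (adjusted p = 0.00651). The size of the Hey1 difference also depended on the division of the cells, at -1.10 when 0.2 replaced 0.5 as the limit and -3.35 when cells near the limit were left out.

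**Figure D4:**
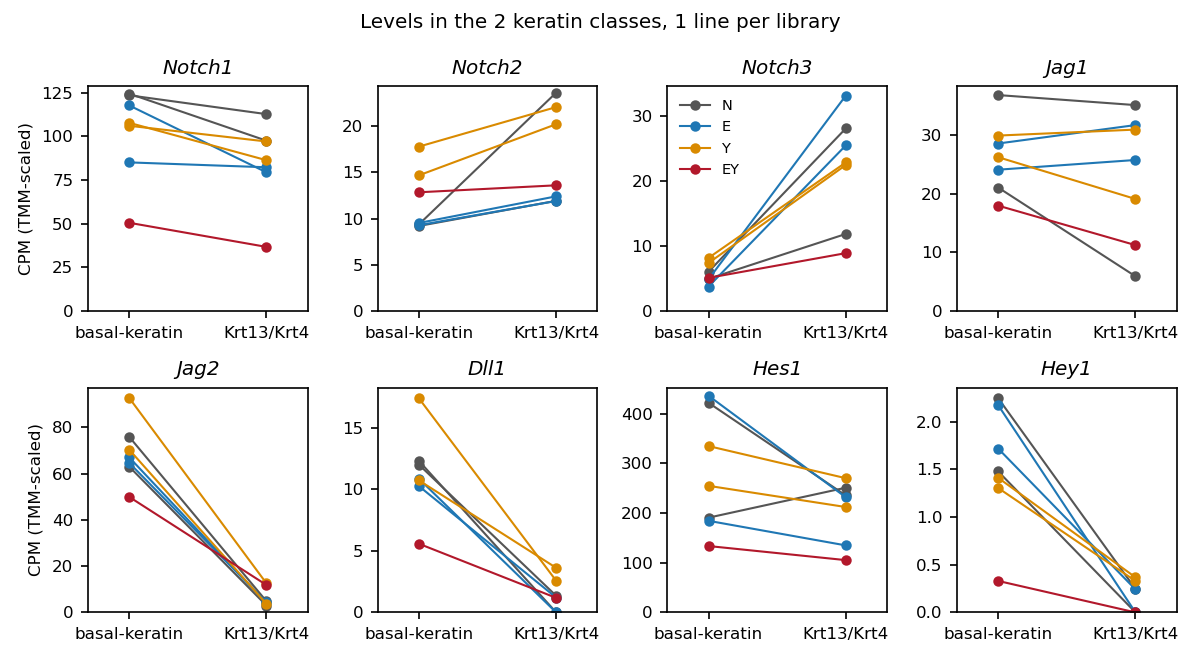
Level of each member in basal-keratin and Krt13/Krt4 cells, in TMM-scaled CPM, with a line for each of 7 libraries coloured by group. Jag2, Dll1 and Hey1 are lower in Krt13/Krt4 cells in every library, and Notch3 and Notch2 are higher in every library.

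The YAP effect was then read within each keratin class. Cells near the class limit were 18.4% and 22.2% in Y, 12.9% and 14.1% in EY and 7.23% to 10.6% in N and E, so the make-up of a class may differ between groups. In basal-keratin cells Notch2 was again the 1 member of 8 called, with a log2 fold change of 0.63 (SE 0.15, edgeR adjusted p = 0.0377), beside 8.96% of 12885 genes. Its levels were 9.20 to 9.53 CPM in the 4 libraries without the YAP transgene and 12.9 to 17.8 CPM in the 4 with it, and these ranges did not overlap. This call was lost in 6 of the 8 fits that left out 1 library, the exceptions being Y1 and EY2, and with either other division of the cells, at adjusted p = 0.0642 and 0.0534. Notch1 was at -0.58 (SE 0.18, edgeR adjusted p = 0.0747) in these cells, close to its value over all epithelial cells. In Krt13/Krt4 cells 6 of the 8 members had enough UMIs to be tested and 0 were called, beside 2.46% of 10144 genes. There 1868 genes had an unadjusted p under 0.05 and DESeq2 called 652.

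The difference of the YAP effect between the classes was tested directly. None of the 8 members was called, beside 0.0636% of 12578 genes, with 846 genes at an unadjusted p under 0.05 and 53 called by DESeq2. Notch3 came nearest. Its YAP effect was 0.38 (SE 0.18) in basal-keratin cells and -0.61 (SE 0.39) in Krt13/Krt4 cells, and the difference was -1.05 (SE 0.30), with an unadjusted p of 0.0047 and an edgeR adjusted p of 0.409. In Krt13/Krt4 cells the only EY library, EY2, was at 8.88 CPM on 15 UMIs. Y1 and Y2, at 22.8 and 22.4 CPM, lay within the N and E range of 11.8 to 33.1 CPM. When cells above the limits of 5500 genes and 30000 UMIs were kept, as larger cells or doublets would be, the difference was -1.17 and was called (adjusted p = 0.00472). Jag2 pointed the other way, with a difference of 0.97 (SE 0.39, edgeR adjusted p = 0.702).

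All 8 members differed between the epithelial cells and the Ptprc-positive cells of the same libraries, a comparison in which 76.1% of 14535 genes were called. Of the 8, 7 were higher in the epithelial cells. Jag2 (log2 fold change 4.54, SE 0.16), Dll1 (4.36, SE 0.31) and Notch3 (4.18, SE 0.29) were separated most, and in the Ptprc-positive cells these were at 1.29 to 4.78, 0 to 0.923 and 0 to 0.533 CPM. Hes1 was higher by 2.79 (SE 0.17), Hey1 by 1.85 (SE 0.50), Jag1 by 1.52 (SE 0.17) and Notch1 by 1.10 (SE 0.19). Notch2 alone was lower in the epithelial cells, at -0.92 (SE 0.19, edgeR adjusted p = 0.0012).

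The wider pathway was described with 52 further genes listed by role. In EY against N, 44 had enough UMIs to be tested, and 9 were called (20.5%), 8 lower and 1 higher. This is close to the 18.8% of all genes called in that comparison. Their median log2 fold change was -0.39, beside -0.05 over all genes. The nuclear complex that the Notch intracellular domain joins held 4 of the 8 lower genes: the Mastermind coactivators Maml3 (-1.84, SE 0.38) and Maml2 (-1.44, SE 0.27) and the acetyltransferases Ep300 (-0.94, SE 0.23) and Crebbp (-0.76, SE 0.14). Also lower were the ligand ubiquitin ligase Mib2 (-1.69, SE 0.41), the family member Hes6 (-1.21, SE 0.33), the corepressor Ncor1 (-0.61, SE 0.14) and the receptor protease Adam10 (-0.55, SE 0.16). The glycosyltransferase Rfng was higher, at 0.71 (SE 0.20). Adjusted p over all genes was 0.0177 to 0.0472 for these 9. The other listed genes of the nuclear complex, Rbpj, Maml1, Kat2b and Snw1, were tested and not called. Whether the 9 calls hold when 1 library is left out was not examined. None of the 44 was called for Y or for E against N.

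Over all 8 libraries the YAP transgene called 2 of the 44 (4.55%), 1 lower and 1 higher, beside 9.33% of all genes. The lower one, Dlk1, a non-canonical ligand that lacks the domain of the activating ligands, fell by 4.67 on the log2 scale (SE 0.82, edgeR adjusted p = 0.0146). Its UMIs numbered 57 (N1), 21 (N2), 229 (E1), 16 (E2), 0 (Y1), 3 (Y2), 1 (EY1) and 2 (EY2).

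Between the keratin classes 14 of 42 tested pathway genes were called (33.3%), 9 lower and 5 higher in Krt13/Krt4 cells, close to the 30.5% of all genes. Their median log2 fold change was -0.03, beside -0.05 over all genes. The 2 largest differences were in Lfng and Dlk2. Lfng, the fringe glycosyltransferase that alters which ligands a receptor answers to, was at -5.77 (SE 0.28, edgeR adjusted p = 7.96e-08), from 5.68 to 23.4 CPM in basal-keratin cells to 0 to 0.592 CPM. Dlk2, a relative of Dlk1, was at -5.61 (SE 0.31, edgeR adjusted p = 1.18e-07). Higher in Krt13/Krt4 cells were Nrarp, a target that limits Notch signalling, at 1.16 (SE 0.13), the cell cycle inhibitor Cdkn1a at 1.10 (SE 0.13), the acetyltransferase Kat2b at 0.80 (SE 0.20) and the gamma-secretase subunit Psenen at 0.37 (SE 0.09). Also lower were Hes6, Maml2, Maml1, Furin, Mib1 and Ncor1, at -0.98 to -0.24.

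**Figure D5:**
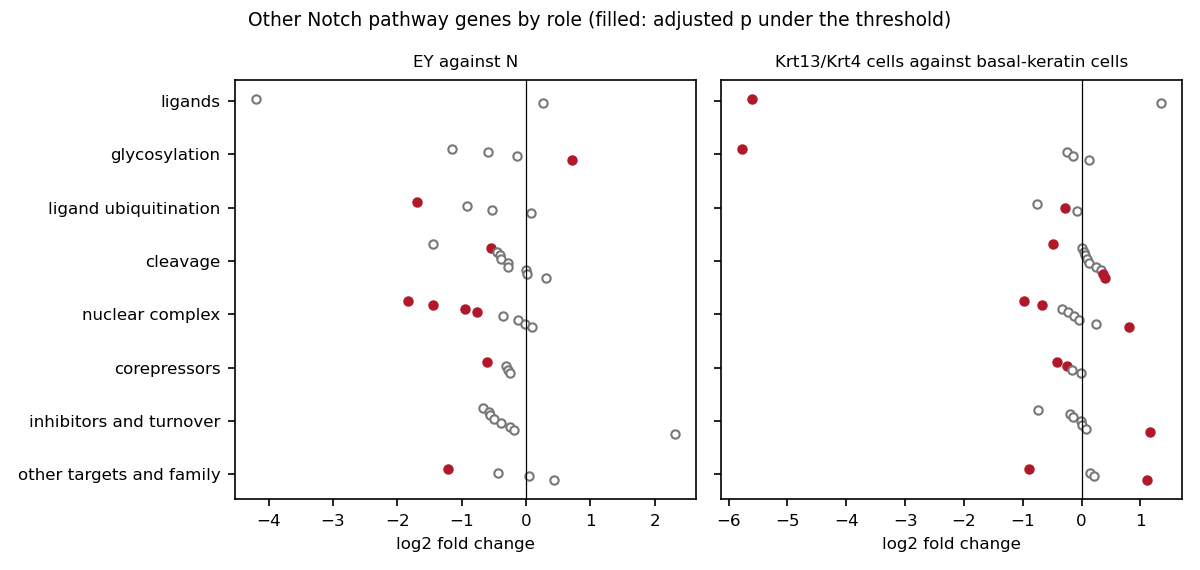
Log2 fold change of the other tested Notch pathway genes by role, for EY against N and for Krt13/Krt4 against basal-keratin cells, 1 point per gene. Filled points passed the threshold, and the 2 filled points furthest left in the comparison of classes are Lfng at -5.77 and Dlk2 at -5.61.

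The genes whose level followed each member most closely over the 8 epithelial sums were found among the 5099 tested genes whose mean reached 20 CPM, by the root mean square difference of their centred log2 profiles. For Notch1 these were Sim2, Ro60 and Smad5, at 0.11 to 0.13, where the Notch1 profile itself had an SD of 0.50. For Notch2 they were Rassf7, Ryk and Stx3, at 0.08 to 0.10 beside an SD of 0.32, and for Notch3 they included Rab3d and Tmem205, at 0.11 to 0.19 beside 0.36. The nearest to Jag1 were Gid4, Tob1 and Pank3, to Jag2 Arfgef1, Rp9 and Lrrc1, and to Dll1 Slc26a2, Kidins220 and Rabgap1. Hes1 was nearest to Rhob, Klf2 and Taf7, at 0.23 to 0.26 beside an SD of 0.54, and Hey1 to 9930021J03Rik, Elk4 and Rpa3, at 0.17 to 0.19 beside 0.50. With 8 libraries and 5099 genes, close profiles are found for any gene, and these names are a description only.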

How the data were processed

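UMI counts per gene and cell were deposited by the authors, who ran Cell Ranger 5.0.0 on its mouse reference (mm10, per the labels). No normalization had been applied. Cells within the study's limits were kept (1000 to 5500 genes, at most 30000 UMIs and 7% mitochondrial UMIs), 25199 of 42550, and no doublet caller was run. Counts were summed per library and cell class, with at least 20 cells per sum, filtered by filterByExpr, scaled by TMM and tested with edgeR 4.0.16 (R 4.3.3), with 1 mean per group, an additive model of both transgenes, or the library as a block. Sums over all epithelial cells held 2454816 to 55154619 UMIs, and of the members Hey1, Dll1 and Notch3 had the fewest there. The tested sums of Krt13/Krt4 cells were smaller, from 387560 UMIs in N2 to 7909924 in E1. The SE is the log2 fold change divided by the root of F. DESeq2 1.42.0, other scalings, filters, cell limits and class limits and the omission of each library were alternatives. Exact binomial intervals (95%) cover counting error only.

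The members, the pathway list and the tests were chosen with earlier results of these data known. Named were all members, pathway genes called (up to 8 a comparison by adjusted p, and after seeing the values the others that passed in the comparison of EY with N and of the classes), 3 nearest genes per member (pseudocount 0.5 CPM), Yap1 and Mcm2. The values of a few genes that these rules name are not reported here. Replicate numbers follow accession order and pair no samples.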

Additional observations from a re-analysis of the deposited data

How the results depend on the processing

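Counts of called members depended on the settings in 7 of the 11 comparisons. Against 1 for EY against N there were 2 without the low-count filter, with cells above the upper limits kept or with keratins at 2% of UMIs, 3 without any cell limit, and 0 to 2 when 1 library was left out. Against 1 for the YAP transgene there were 0 without a scaling factor, 2 with DESeq2, 3 without cell limits or without upper limits, and 0 in every fit without 1 library. In basal-keratin cells the same effect gave 1 in the main fit, 0 without a scaling factor, with the class limit at 0.2 or without cells near it, 2 with DESeq2 or no low-count filter, 4 without cell limits or upper limits, and 0 to 1 without 1 library. From 0, the count rose to 1 for Y against N without upper limits, 1 for E6-E7 without the low-count filter, 4 and 2 for the YAP effect in Krt13/Krt4 cells without cell limits and without upper limits, and 1 for the class difference of the YAP effect under either. The comparisons of classes and of compartments and the others kept their counts within 1.5 times. The cause of these shifts was not tested, except that a fit without 1 library has fewer samples.

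Directions changed in few fits, and for no called value. Jag2 in Y against N was -0.12 without cell limits and -0.057 without upper limits, and its interaction was 0.062 without cell limits. With the class limit at 0.2, Notch1 was 0.079 higher in Krt13/Krt4 cells, and without cells near the limit the YAP effect on Notch3 there was 0.056 and the class difference for Hes1 was -0.016. When 1 library was left out of EY against N, Notch3 ranged from -0.84 to 0.039, Hes1 from -1.14 to 0.11 and Hey1 from -2.42 to 0.23. A further 81 of 1627 recomputed member values changed sign where the main value was within 1 SE of 0. The Notch2 share difference of 7.85 percentage points stayed between 6.73 and 10.4 in 14 alternatives chosen after seeing the data. The exclusion of non-epithelial marker cells with Dcn kept was also added after seeing the data, since the epithelial cells held 27.0 to 1223 CPM of Dcn.

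Over all genes, 2550 calls for EY against N became 753 to 6059 in other settings and 5 to 4061 without 1 library, and 1224 for the YAP transgene became 1126 to 6205 and 315 to 1745. For Y against N, 62 became 0 to 1504, for E against N 33 became 0 to 367, for E6-E7 57 became 1 to 765, and for the interaction 0 became 0 to 672. Between the classes, 3841 became 2725 to 6112. For the YAP effect, 1154 became 291 to 6318 in basal-keratin cells, 250 became 5 to 3016 in Krt13/Krt4 cells, and 8 became 1 to 688 for their difference. Unscaled library sizes moved the median interaction over all genes from -0.07 to -0.17. Depth limited Hey1 and, in Krt13/Krt4 cells, Dll1 and Jag2, and in the smallest libraries also Jag1, Notch2 and Notch3.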

Other observations

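The other Notch pathway genes were also compared between the epithelial cells and the Ptprc-positive cells, 586 to 3835 per library. Of 47 tested pathway genes beyond the 8, 33 were called (70.2%), 23 lower and 10 higher in the epithelial cells. This share is below the 76.1% of all genes called in that comparison. Higher in Ptprc-positive cells were the fringe gene Mfng (8.05 to 25.1 CPM against 0 to 0.406 CPM in epithelial cells, log2 fold change -7.83, SE 0.38), the DNA-binding partner Rbpj (log2 fold change of -3.14 in epithelial against Ptprc-positive cells, SE 0.13), the protease Furin (-3.70, SE 0.16), the gamma-secretase subunit Psen2 (-3.81, SE 0.18) and Adam17 (-1.73, SE 0.14). Higher in the epithelial cells were Dlk2 (5.90, SE 0.25) and Myc (1.67, SE 0.16). Adjusted p from edgeR was 6.12e-07 or lower for those named here except Myc, at 2.57e-06. Dll4 had 0 to 3 UMIs per library in the epithelial cells and Heyl 0 to 2.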
